A study of Homo sapiens with 6 samples.

Results

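Translation initiation factors are the proteins that bring a ribosome, the initiator tRNA and an mRNA together at the start codon. Their genes were taken by name, as every gene symbol that begins with EIF and a digit from 1 to 6, without the EIF2AK kinases and without readthrough genes, whose symbols hold a hyphen. This gave 51 of the 14959 genes in the expression table. The cells were UM-SCC1, an established line of human head and neck squamous cell carcinoma. They received either mimics of miR-204-5p, synthetic small RNAs that stand in for this microRNA, or control mimics, with 3 RNA-seq libraries per group. According to the general transfection methods of the study, Dharmacon miRIDIAN oligos were delivered with Lipofectamine RNAiMax and cells were harvested after 48 h. All 6 libraries come from 1 cell line, and the labels do not say whether the replicates were separate cultures, so p-values measure the spread between these libraries, which may be technical.

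Initiation runs through a set of assemblies that are named after their factors. eIF1 and eIF1A hold the small ribosomal subunit in a state that can scan for a start codon, eIF2 carries the initiator tRNA and is recharged by eIF2B, eIF3 is the large scaffold on the small subunit, and eIF4F binds the mRNA cap and unwinds the leader. eIF5 triggers GTP hydrolysis by eIF2, and eIF5B joins the large subunit. Binding proteins of eIF4E block eIF4F assembly, and tumor cells often depend on a high output of this pathway.

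Expression was given as FPKM, fragments per kilobase of transcript after scaling to the depth of the library, and differences as log2 fold changes of the mimics over the control on the log2(FPKM + 1) scale. A gene was called changed at an adjusted p under 0.05 (limma, two-sided, Benjamini-Hochberg over all genes). Read counts were not given; the smallest steps among low values place the libraries at 13.0 to 16.4 M (mega) fragments. Of the squamous epithelial markers, 8 of 8 were above 1 FPKM, and their summed level was 516 to 618 FPKM with miR-204-5p mimics against 705 to 735 FPKM in controls, with 5 called lower and 2 higher. Of 4 fibroblast markers in the table only COL1A1 had a mean above 1 FPKM, and their sum was 9.81 to 11.6 FPKM against 8.58 to 9.41 FPKM, with 2 called higher. The 3 endothelial markers in the table had means under 1 FPKM, with 1 called higher, and the monocyte and macrophage markers CD14 and CD68 had means above it, of which CD14 fell (log2 fold change -0.37, adjusted p = 0.00407). The part of these shifts in the results on initiation factors was not tested. The transfected small RNA has no row among the genes analysed, so its uptake was not checked here.

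The mature miR-204-5p of RefSeq (build GRCh38.p14, chr9:70810031-70810052, minus strand) is shown first, with its seed, bases 2 to 8, in capitals. Below it stand stretches of the initiation factor mRNAs with the matched letters in capitals, all read from GENCODE 29 transcripts (GRCh38). AAAGGGA matches the whole seed, and AAAGGGAA adds an A opposite the base before the seed. AAGGGAA has that A but does not match base 8. The sites of EIF4EBP2, EIF1 and EIF3F lie in the 3'UTR, in exon 3 of 3, exon 4 of 4 and exon 10 of 10. They are shown because EIF4EBP2 was the member with the greatest rise, EIF1 the only called-lower member with a 3'UTR match, and EIF3F the only member with an 8mer match in its longest 3'UTR. The coding sites of EIF5B and EIF3A are shown because both genes hold 3 of them, and EIF5B was called lower while EIF3A was not called.
hsa-miR-204-5p: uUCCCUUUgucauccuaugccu
EIF4EBP2 3'UTR, chr10:70425781-70425806: tggggattgtccagcAAAGGGAgcaa
EIF4EBP2 3'UTR, chr10:70427827-70427852: cacactgaaatttccAAAGGGAgctc
EIF1 3'UTR, chr17:41691444-41691469: agttaaacttttgacAAGGGAAcaaa
EIF3F 3'UTR, chr11:7999678-7999703: tgagggtatggagaAAAGGGAAccct
EIF5B coding part, exon 2, chr2:99360312-99360337: caaaagtcaAAAGGGAAaaagaaaaa
EIF5B coding part, exon 4, chr2:99361343-99361368: aaaaaagctAAAGGGAAagctcaaaa
EIF5B coding part, exon 6, chr2:99364335-99364359: tgaaaaaagAAGGGAAacttttaac
EIF3A coding part, exon 17, chr10:119049865-119049889: aaaaacgccAAAGGGAgttggaaat
EIF3A coding part, exon 20, chr10:119038328-119038352: gagaaaaagAAAGGGAcagagataa
EIF3A coding part, exon 20, chr10:119038274-119038298: ctgagagagAAAGGGAcagagagag

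The initiation factor genes were abundant in both groups. Of the 51, 49 had a mean of at least 1 FPKM, 44 lay above the median of all genes (5.91 FPKM), and 12 had a mean of 100 FPKM or more. With the mimics, 20 of the 51 rose and 7 fell, while over all genes 23.9% were called higher and 16.8% lower, 40.8% in all. In a fit of only the genes with a mean of at least 1 FPKM, 28 of the 49 members and 50.1% of these genes were called. The changes were small: 18 of the 27 called members moved by less than 0.3 on the log2 scale. Only 4 members moved by at least 0.5, a size that 12% of all genes reached together with an adjusted p under 0.05. These were EIF5 and EIF5B, which fell, and EIF4A2 and EIF4EBP2, which rose. The median log2 fold change of the members was 0.10, that of all genes 0.03, and the members ranged from -0.55 to 0.59. The groups did not overlap for 34 members, 24 higher and 10 lower with the mimics, against a background of 30.9% and 22.7% of all genes, 53.6% in all. Of the 27 calls, 17 (4 lower and 13 higher) were kept under each of the 11 other settings tried.

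**Figure D1:**
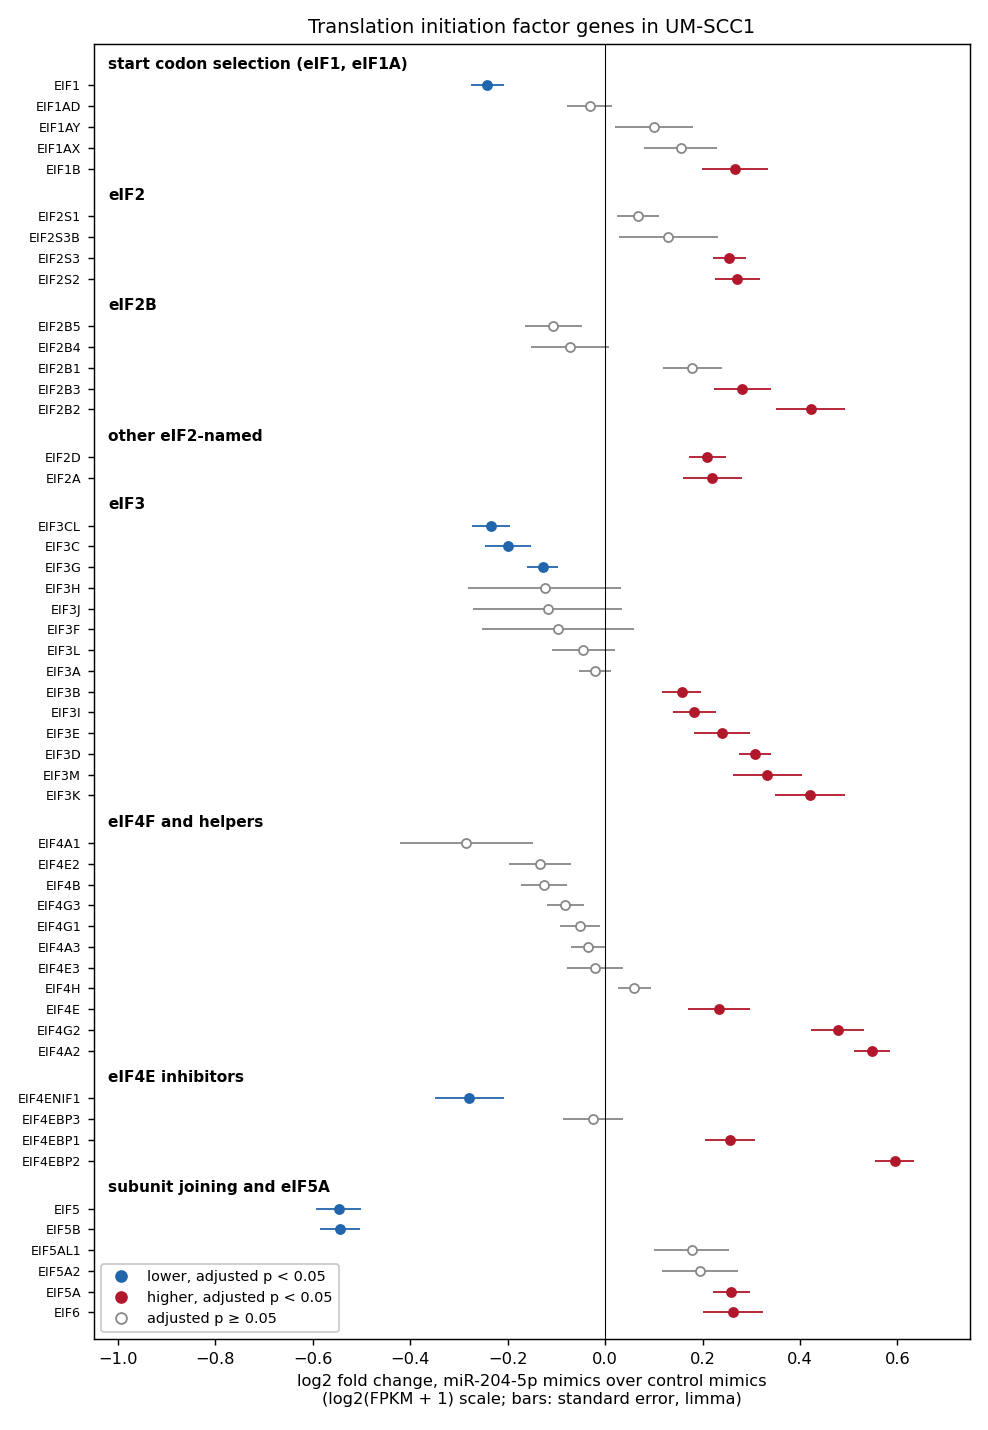
Each point is the log2 fold change (miR-204-5p mimics over control mimics, log2(FPKM + 1) scale, 3 libraries per group) of 1 of the 51 initiation factor genes, ordered by role, and bars are the standard error from limma. EIF5 and EIF5B stand apart on the low side near -0.5, EIF4A2 and EIF4EBP2 on the high side, and the other called members lie between -0.28 and 0.48.

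The members with the greatest fall act at the last steps of initiation. EIF5 (ENSG00000100664, chr14:103334002-103345025, GRCh38), which stimulates GTP hydrolysis by eIF2 once the start codon is found, measured 28.2, 27.9 and 25.6 FPKM with miR-204-5p mimics and 40.2, 39.5 and 40.9 FPKM with control mimics. Its highest mimic library lay well under its lowest control library. The log2 fold change was -0.55 (SE 0.046, adjusted p = 0.000298). EIF5B (ENSG00000158417, chr2:99337353-99401326), the GTPase that joins the large subunit, measured 20.8, 22.2 and 22.1 FPKM against 31.7, 32.3 and 32.2 FPKM in controls. The groups again did not overlap, with a log2 fold change of -0.54 (SE 0.0405, adjusted p = 0.000196). Each gene was at a ratio of means of 0.68 to the control level, and both calls were kept with any 1 library left out. Exons of EIF5B overlap REV1 on the opposite strand, which did not pass (7.92 against 8.25 FPKM, log2 fold change -0.05). In such bulk libraries, fewer cells that express a gene and less RNA per cell cannot be told apart.

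The other genes grouped here with EIF5 and EIF5B, those of eIF5A and EIF6, rose or did not pass the test. EIF5A, which carries the modified amino acid hypusine and helps ribosomes through difficult stretches, went up (197 ± 6.66 FPKM in controls and 236 ± 4.59 FPKM with the mimics, SD, n = 3) with a log2 fold change of 0.26 (adjusted p = 0.00261). Its libraries measured 231, 237 and 239.7 FPKM with the mimics and 196, 191 and 204 FPKM in controls, without overlap. EIF6, which keeps the ribosomal subunits apart until the large one is mature, rose from 50.5 ± 1.32 to 60.9 ± 4.94 FPKM (log2 fold change 0.26, adjusted p = 0.0151), and its adjusted p was 0.0517 without control mimics replicate 1. The paralog EIF5A2 (2.09 against 1.71 FPKM, adjusted p = 0.0933) and the intronless copy EIF5AL1 (3.13 against 2.66 FPKM, adjusted p = 0.111, and 0.0486 without control replicate 1) did not pass, and EIF5AL1 is so close to EIF5A in sequence that reads may be split between them. In single libraries, EIF5B stood at 0.0900 to 0.0939 of the EIF5A level with the mimics and at 0.158 to 0.169 with the control.

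**Figure D2:**
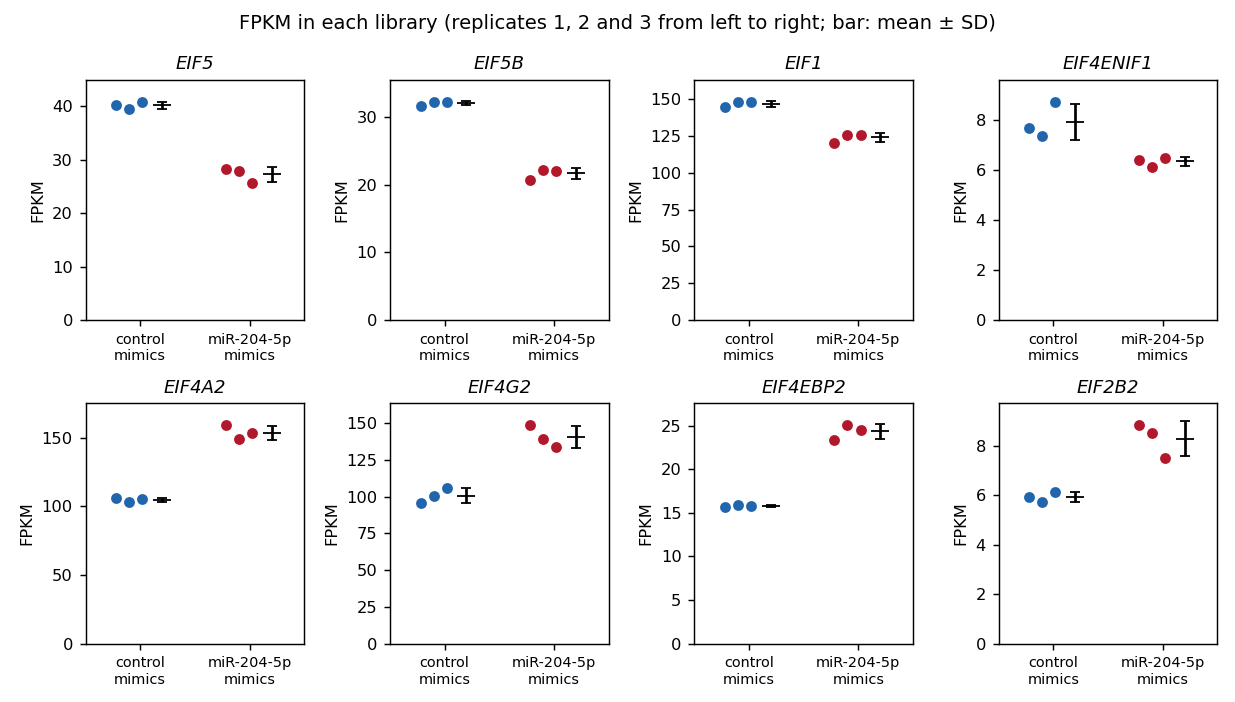
FPKM of 8 initiation factor genes in each of the 3 control mimics (blue) and 3 miR-204-5p mimics (red) libraries, with mean ± SD beside them and each axis starting at 0. In all 8 genes the groups did not overlap, with EIF5, EIF5B, EIF1 and EIF4ENIF1 lower and EIF4A2, EIF4G2, EIF4EBP2 and EIF2B2 higher with the mimics.

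Among the genes of start codon selection, 1 of 5 fell and 1 rose, beside 16.8% of all genes called lower and 23.9% called higher. EIF1, which keeps the scanning ribosome from stopping at poor start codons, measured 121, 126 and 126 FPKM with miR-204-5p mimics and 145, 148 and 148 FPKM with control mimics. The groups did not overlap (log2 fold change -0.24, SE 0.0341, adjusted p = 0.00207). Its paralog EIF1B rose, at 49.2, 41.7 and 46.7 FPKM against 39.4, 36.0 and 38.3 FPKM (log2 fold change 0.27, SE 0.0685, adjusted p = 0.0216). The EIF1B call was kept in 2 of the 6 fits that leave out a library, without mimics replicate 2 (adjusted p = 0.0096) and without control replicate 1 (0.038). Its adjusted p was 0.0572 without mimics replicate 1, 0.0638 without mimics replicate 3, 0.0697 without control replicate 2 and 0.0522 without control replicate 3. The ratio of EIF1 to EIF1B was 2.45 to 3.02 with the mimics and 3.67 to 4.12 with the control. EIF1AX, which encodes eIF1A, measured 15.9 ± 0.803 against 14.2 ± 1.36 FPKM and EIF1AD, named for an eIF1A-like domain, 12.7 ± 0.0905 against 13.0 ± 0.521 FPKM, with adjusted p of 0.146 and 0.615. EIF1AX passed only without control replicate 3 (adjusted p = 0.0331). EIF1AY, a close copy of EIF1AX on another chromosome, stayed under 1 FPKM.

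Of the eIF2 genes, the beta and gamma subunits rose. EIF2S2, the beta subunit, measured 159, 153 and 146 FPKM with miR-204-5p mimics against 122, 125 and 132 FPKM in controls (log2 fold change 0.27, SE 0.046, adjusted p = 0.00434). EIF2S3, the gamma subunit that binds GTP and the tRNA, measured 88.3, 91.3 and 86.6 FPKM against 73.7, 73.5 and 75.3 FPKM (log2 fold change 0.26, SE 0.0344, adjusted p = 0.00174). For both genes the mimic libraries all lay above the control libraries. EIF2S1, the alpha subunit on which the stress kinases act, measured 21.2 to 22.9 FPKM against 20.5 to 21.4 FPKM (log2 fold change 0.07, adjusted p = 0.263). The retrocopy EIF2S3B, at 2.53 against 2.23 FPKM, did not pass either (adjusted p = 0.357), and it shares sequence with EIF2S3. EIF2A and EIF2D, which deliver tRNA without eIF2 on special mRNAs, both rose: EIF2D from 23.9 ± 0.249 to 27.8 ± 0.834 FPKM (log2 fold change 0.21, adjusted p = 0.00559) and EIF2A from 34.7 ± 1.88 to 40.7 ± 2.42 FPKM (log2 fold change 0.22, adjusted p = 0.026). The EIF2A call was lost in 4 of the 6 fits that leave out a library, with adjusted p of 0.0731 and 0.0762 without mimics replicates 1 and 2, and of 0.0658 and 0.0785 without control replicates 1 and 2.

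The eIF2B genes, whose product reloads eIF2 with GTP, differed among themselves. EIF2B2, the beta subunit, showed the greatest rise at 8.84, 8.54 and 7.50 FPKM against 5.93, 5.72 and 6.13 FPKM (log2 fold change 0.42, SE 0.0707, adjusted p = 0.00417). EIF2B3, the gamma subunit, rose from 8.65 ± 0.55 to 10.7 ± 0.361 FPKM (log2 fold change 0.28, adjusted p = 0.00968). In both the groups did not overlap, and both calls held with each library left out. EIF2B1 (log2 fold change 0.18, adjusted p = 0.0548) missed the threshold although its groups did not overlap, whereas EIF2B4 (-0.07, adjusted p = 0.511) and EIF2B5, the catalytic subunit (-0.11, adjusted p = 0.195), overlapped between groups.

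The 14 genes of eIF3, the scaffold that binds the small subunit, moved in both directions: 6 rose, 3 fell and 5 did not pass. Over all genes 23.9% were called higher and 16.8% lower. The median log2 fold change of the 14 was -0.03. EIF3C and EIF3CL, both among those that fell, are near-identical copies. EIF3K rose from 44.7 ± 1.91 to 60.3 ± 5.56 FPKM (log2 fold change 0.42, adjusted p = 0.00468), EIF3M from 19.7 ± 1.48 to 25.0 ± 1.66 FPKM (0.33, adjusted p = 0.0106), and EIF3D, a subunit that can bind the cap of some mRNAs, from 57.9 ± 0.673 to 71.9 ± 1.31 FPKM (0.31, adjusted p = 0.000655). These 3 calls held with each library left out. EIF3E (log2 fold change 0.24), EIF3I (0.18) and EIF3B (0.16) also rose, with adjusted p of 0.0172, 0.0177 and 0.0205, but their calls were lost in 4, 4 and 3 of the fits that leave out a library. Without mimics replicate 1 or 2 the adjusted p was 0.0514 or 0.06 for EIF3E, 0.0502 or 0.0591 for EIF3I, and 0.0512 or 0.056 for EIF3B. Without control replicate 2 it was 0.0596, 0.061 and 0.0554, and without control replicate 1 it was 0.0599 for EIF3E and 0.0616 for EIF3I.

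The eIF3 genes that fell were EIF3C, EIF3CL and EIF3G. EIF3CL measured 85.4, 86.7 and 89.2 FPKM with miR-204-5p mimics and 98.6, 104 and 105 FPKM with control mimics (log2 fold change -0.23, SE 0.0391, adjusted p = 0.00411). EIF3C measured 77.7, 77.8 and 73.1 FPKM against 89.1, 83.3 and 90.6 FPKM (log2 fold change -0.20, SE 0.0467, adjusted p = 0.0152). These neighbors on chromosome 16 are near-identical copies that code for the same core subunit, so the division of reads between them is uncertain and they do not count as separate results. EIF3C lost its call without control replicate 1 (adjusted p = 0.0526). EIF3G, an RNA-binding subunit, fell from 144 ± 2.09 to 132 ± 2.57 FPKM (log2 fold change -0.13, adjusted p = 0.0205), and its adjusted p was 0.0646 without mimics replicate 2, 0.0701 without control replicate 1 and 0.0591 without control replicate 3.

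Of the 5 remaining eIF3 genes, EIF3F, EIF3H and EIF3J varied widely between libraries of 1 group. EIF3F measured 13.5 FPKM in mimics replicate 1 but 20.6 and 20.8 FPKM in the other mimic libraries, around controls of 18.6 to 19.8 FPKM. EIF3J measured 14.2, 22.2 and 15.4 FPKM against 17.5 to 19.1 FPKM. EIF3H fell into separate levels inside both groups, at 57.3, 42.3 and 41.6 FPKM with the mimics and 42.3, 55.5 and 55.8 FPKM with the control. With EIF4A1, they were the only members above 1 FPKM whose coefficient of variation over the mimic libraries passed 15%. Their adjusted p were 0.658, 0.581 and 0.567, and for EIF3J 0.0186 without mimics replicate 2. EIF3A, the largest scaffold subunit, was at 82.0 ± 1.89 against 83.2 ± 0.738 FPKM (log2 fold change -0.02, SE 0.0327), and EIF3L was at 69.8 ± 4.55 against 72.0 ± 4.4 FPKM (log2 fold change -0.05).

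**Figure D3:**
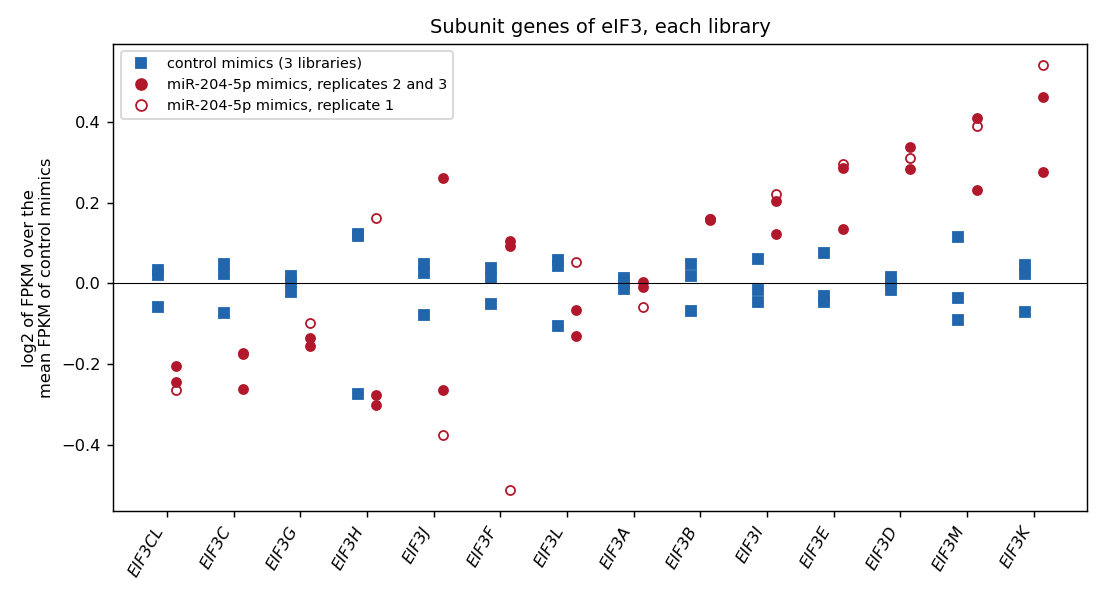
FPKM of the 14 eIF3 subunit genes in each library, as log2 of the ratio to the mean of the 3 control mimics libraries (blue squares), with miR-204-5p mimics in red and their replicate 1 open. Genes are ordered by log2 fold change: EIF3CL, EIF3C and EIF3G lie wholly below the controls, EIF3B, EIF3I, EIF3E, EIF3D, EIF3M and EIF3K wholly above, and in EIF3F the low value is mimics replicate 1 at 13.5 FPKM.

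In the eIF4F group, 3 of 11 genes rose, beside 23.9% of all genes called higher. These were the helicase EIF4A2, the scaffold EIF4G2 and the cap-binding EIF4E. EIF4A2 (ENSG00000156976, chr3:186783205-186784659) measured 159, 149 and 153 FPKM with miR-204-5p mimics and 106, 103 and 106 FPKM with control mimics. All mimic libraries lay above all controls, with a log2 fold change of 0.55 (SE 0.0373, adjusted p = 0.000153). The listed EIF4A2 transcript, to which these coordinates belong, is 480 bases long and 1 of 27 annotated for the gene. Whether the FPKM belongs to this transcript or to the whole gene is not given in the sources used here. Over all its annotated transcripts, EIF4A2 has exons that overlap those of RFC4 on the opposite strand (14.8 against 10.8 FPKM, log2 fold change 0.42). The part of RFC4 reads in the EIF4A2 value was not tested. Its paralog EIF4A1 measured 204, 140.4 and 167 FPKM against 187, 217 and 215 FPKM, which overlap, and did not pass (log2 fold change -0.29, SE 0.136, adjusted p = 0.143). Without mimics replicate 1 the EIF4A1 value was -0.42 with an adjusted p of 0.0273. EIF4A1 shares exons with the readthrough gene SENP3-EIF4A1 (18.4 against 9.01 FPKM, adjusted p = 0.257), and its listed transcript is annotated as a target of nonsense-mediated decay. The ratio of EIF4A2 to EIF4A1 was 0.78 to 1.06 with the mimics and 0.475 to 0.567 with the control. EIF4A3, the relative that sits in the exon junction complex, was at 101 ± 2.86 against 104 ± 1.59 FPKM (adjusted p = 0.475).

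EIF4G2, a scaffold relative that lacks the eIF4E-binding part and serves cap-independent initiation, measured 149, 139 and 134 FPKM with miR-204-5p mimics against 95.8, 101 and 106 FPKM with control mimics. The groups did not overlap (log2 fold change 0.48, SE 0.0545, adjusted p = 0.00091). The canonical scaffolds did not pass the test: EIF4G1 was at 69.0 ± 3.21 against 71.5 ± 0.421 FPKM (log2 fold change -0.05, adjusted p = 0.366) and EIF4G3 at 17.3 ± 0.395 against 18.3 ± 0.203 FPKM (-0.08, adjusted p = 0.135, and 0.0376 with libraries scaled to equal medians). EIF4G2 was 1.85 to 2.25 times the level of EIF4G1 with the mimics and 1.35 to 1.47 times with the control. EIF4E itself had low FPKM values. Its listed transcript is 11523 bases long and 1 of 11 annotated for the gene, and the part of this length in the low values was not tested. EIF4E measured 4.79, 4.37 and 4.21 FPKM against 3.59, 3.60 and 3.72 FPKM (log2 fold change 0.23, adjusted p = 0.0262). This call was lost in 5 of the 6 fits that leave out a library, with adjusted p of 0.0652 and 0.0602 without mimics replicates 1 and 2, and of 0.0733, 0.0729 and 0.0551 without control replicates 1, 2 and 3. The helicase partners EIF4B (142 ± 6.53 against 155 ± 5.29 FPKM, log2 fold change -0.13, adjusted p = 0.0737) and EIF4H (168 ± 4.03 against 161 ± 2.06 FPKM, 0.06, adjusted p = 0.206) did not pass. EIF4B passed without mimics replicate 1 (adjusted p = 0.0334). The cap-binding relatives EIF4E2 (-0.13) and EIF4E3 (-0.02) did not pass either.

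Of the genes for proteins that bind eIF4E and keep it from the scaffold, 2 of 4 rose and 1 fell. The shares over all genes were 23.9% called higher and 16.8% called lower. EIF4EBP2 (ENSG00000148730, chr10:70404379-70428618) measured 23.4, 25.0 and 24.5 FPKM with miR-204-5p mimics and 15.7, 15.9 and 15.7 FPKM with control mimics. The controls lay close together and all mimic libraries lay above them, with a log2 fold change of 0.59 (SE 0.0405, adjusted p = 0.000154), the greatest rise of the 51 genes. EIF4EBP1, the more abundant paralog, measured 63.2, 55.8 and 61.5 FPKM against 49.5, 49.9 and 51.0 FPKM (log2 fold change 0.26, SE 0.052, adjusted p = 0.00874). EIF4EBP3 was at 0.295 against 0.315 FPKM, too low to compare. EIF4ENIF1, which carries eIF4E to the nucleus and to sites of mRNA storage, fell, at 6.41, 6.13 and 6.48 FPKM against 7.67, 7.37 and 8.73 FPKM (log2 fold change -0.28, SE 0.0706, adjusted p = 0.0203), and its adjusted p was 0.0662 without mimics replicate 2. The summed level of the 3 EIF4EBP genes was 18.1 to 20.6 times that of EIF4E with the mimics and 18.0 to 18.4 times with the control, ranges that overlap. The size of these ratios depends on the transcript lengths behind each FPKM, and the listed EIF4E transcript is 11523 bases long.

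To compare whole assemblies, FPKM values were added over the genes of each and compared between groups with the exact permutation test (two-sided), in which 3 against 3 libraries cannot go below p = 0.1. The EIF4EBP sum was 84.8 ± 3.22 with the mimics and 66.2 ± 0.774 FPKM with the control, a ratio of 1.28, and the sum of the eIF2 subunits EIF2S1, EIF2S2 and EIF2S3 was 264 ± 8.02 against 222 ± 5.89 FPKM, a ratio of 1.19. In both the groups did not overlap (exact p = 0.1, adjusted over 5 sums p = 0.25). The sums of eIF2B (70.8 ± 3.73 against 65.5 ± 2.91 FPKM), eIF3 (1148 ± 37.6 against 1100.0 ± 27.1 FPKM) and eIF4F (415 ± 35.4 against 404 ± 16.5 FPKM) overlapped, with exact p of 0.2, 0.2 and 0.8. The eIF4F sum covered only 5 genes, EIF4E, EIF4A1, EIF4A2, EIF4G1 and EIF4G3. It left out EIF4G2, EIF4B, EIF4H and the other genes of the eIF4F group above. Without mimics replicate 1, and with libraries scaled to equal medians, the eIF4F sum was lower and not higher with the mimics (log2 differences of -0.03 and -0.01). EIF5, which acts on eIF2, stood at 0.101 to 0.105 of the eIF2 sum with the mimics and at 0.179 to 0.185 with the control. The gene pairs given as ratios were chosen after their values were seen.

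Genes that act on these factors were taken from a list of 31, all in the table. With miR-204-5p mimics, 12 of the 31 fell and 3 rose, beside 16.8% and 23.9% of all genes, with a median log2 fold change of -0.09. ABCF1, an ATPase that works with eIF2 on the ribosome, showed the greatest fall, at 10.5, 10.3 and 10.9 FPKM against 26.9, 27.4 and 27.4 FPKM (log2 fold change -1.29, adjusted p = 1.8e-05). Other regulators that fell by at least 0.5 were MKNK2, a kinase of eIF4E (-0.87, adjusted p = 0.00183), PDCD4, an inhibitor of the eIF4A helicases (-0.83, adjusted p = 0.000151), and DOHH, the enzyme that completes hypusine on eIF5A (-0.79, adjusted p = 0.000242). RPS6KB1, a kinase downstream of mTOR (-0.63, adjusted p = 0.000553), and PAIP2B, an inhibitor of the poly(A)-binding protein (-0.59, adjusted p = 0.000581), were also in this class. ABCE1, which splits ribosomes for reuse, rose (0.63, adjusted p = 0.000139). Of 9 elongation and termination factors in the table, 5 rose and 1 fell, beside the same 23.9% and 16.8% of all genes, with EEF1A2 at 1.93 ± 0.0896 against 0.627 ± 0.135 FPKM (log2 fold change 0.85, adjusted p = 0.000343). That count of 6 was 3 without mimics replicate 2, without control replicate 1 or without control replicate 2.

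Whether these genes carry matches to the transfected microRNA was read from the annotated 3'UTRs, taking the longest 1 per gene, on the mRNA strand. The letters searched were AAAGGGAA (8mer), AAAGGGA (7mer-m8) and AAGGGAA (7mer-A1), of which the longer holds both shorter ones. At least 1 match was present in 9 of the 51 members, a share below the 27.1% of all 14664 genes with a 3'UTR. These were EIF3F (8mer), EIF4B, EIF4E2, EIF4EBP2, EIF3M and EIF5A2 (7mer-m8), and EIF1AX, EIF1 and EIF5AL1 (7mer-A1). Of the 9, EIF1 fell and EIF4EBP2 and EIF3M rose. Over the 3973 genes of the table with such a match, 1073 were called lower and 651 higher, 43.4% in all. The median log2 fold change of the 9 was 0.16, against -0.03 over these 3973 genes. EIF4EBP2, with the 7mer-m8 matches shown above, was higher in all 3 mimic libraries than in any control. EIF5 and EIF5B held none of these letters in the 3'UTR. In the 3'UTR of the listed transcript, EIF1 and EIF4E2 held no match, and EIF3M held an 8mer. That EIF3M transcript is annotated as a target of nonsense-mediated decay.

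The same letters were then sought in the coding part, a search and a cut at 3 matches that were chosen after values of these genes had been seen. The coding part was that of the transcript with the longest 3'UTR, which can be short. Only 150 bases were searched for EIF3D and 515 for EIF3E, so matches elsewhere could be missed. At least 1 coding match was present in 10 of the 51 members and in 20.8% of all genes with a 3'UTR. At least 3 were present in 4 members and in 1.43% of these genes. The 4 members were EIF5B and EIF3A with 3 each and EIF3C and EIF3CL with 4 each, the last pair with the same stretches. EIF5B, EIF3C and EIF3CL fell, with log2 fold changes of -0.54, -0.20 and -0.23, and EIF3A, at -0.02, did not pass. Over all 146 genes with at least 3 coding matches and none in the 3'UTR, 44 were called lower and 15 higher, with a median log2 fold change of -0.06. These genes include the 4 members. Of the 2105 genes with at least 1 coding match and none in the 3'UTR, 400 were called lower and 464 higher, with a median of 0.003. Coding length was not matched between these sets. Of the 8586 genes with no match in either place, 1038 were called lower and 2442 higher, with a median of 0.07. EIF5, with the same size of fall as EIF5B, held no match in either place. These matches describe the letters of the transcripts, and pairing with the microRNA was not measured.

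**Figure D4:**
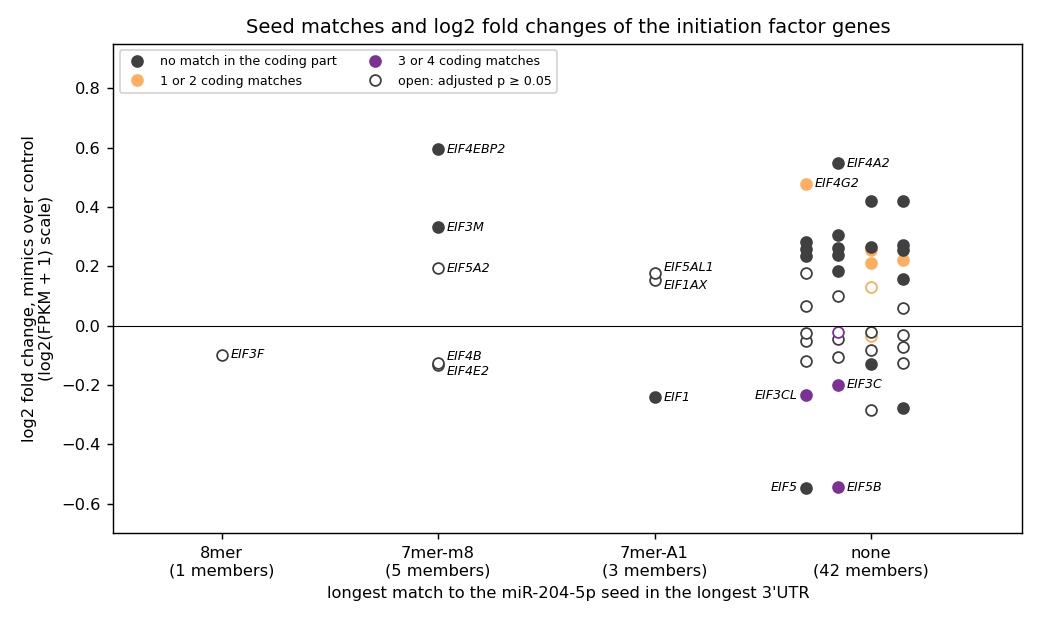
Log2 fold change (log2(FPKM + 1) scale) of the 51 initiation factor genes by the class of 3'UTR match, with points spread sideways for legibility, colour for the number of coding matches and open symbols for an adjusted p of at least 0.05. Of the 9 genes with a 3'UTR match EIF1 is the one called lower, and EIF5 and EIF5B, the lowest points near -0.55, fall in the class without one.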

How the data were processed

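The 6 RNA-seq libraries, 3 per group, were analyzed from 1 table. The authors deposited FPKM in 1 row per gene, with 1 transcript listed; whether a value belongs to the gene or to that transcript is not given in the sources used here. Libraries were made with an Illumina TruSeq RNA kit and sequenced on an Illumina HiSeq instrument; the submitters' processing notes name HISAT2, StringTie and hg38 with no versions, and strand handling is not given in the sources used here. The table also holds the authors' log ratios, p-values and FDR for this comparison, which were not used. The count model named in the study's methods needs read counts; in 1174 genes with 1 transcript, a whole number of steps (tolerance 0.01) made up only 21.4% to 25.2% of low values, so counts were not recovered.

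log2(FPKM + 1) was fitted for all 14959 genes with limma 3.58.1 (lmFit, eBayes with trend) in R 4.3.3, without filter, scaling or covariate, two-sided, with Benjamini-Hochberg adjustment and a threshold of 0.05. The script was tested on simulated data. Sums over assemblies were compared with the exact permutation test in scipy 1.17.1. Seed matches came from GENCODE 29 transcripts and RefSeq miRNA sequence. All 51 listed transcripts were found there, 4 annotated as targets of nonsense-mediated decay and 9 shorter than 1000 bases. The coordinates printed with EIF5, EIF5B, EIF4A2 and EIF4EBP2 are those of the listed transcripts. The 4 were those of EIF4A1 and of EIF2D, EIF3M and EIF6, which were called higher. Exons of 20 members overlap another gene of the table, and whether reads were told apart by strand is unknown. Such genes on the opposite strand include ATP6V1D at EIF2S1 (13.4 FPKM with the mimics against 8.93 FPKM in controls) and SFI1 at EIF4ENIF1 (6.55 against 4.61 FPKM), which rose. SERP1 at EIF2A (24.4 against 29.4 FPKM) fell. Their part in the values of these members was not tested.

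The members and gene lists were chosen with earlier results of these data known. Any member could be named; values in every library were set for members with an adjusted p under 0.05, no overlap and a log2 fold change of at least 0.5 in size, and for their paralogs, and others were added after values were seen; genes of the other lists were named by the same thresholds. Alternatives were a pseudocount of 0.1, a mean FPKM of at least 1, scaling to equal medians, quantile normalization, the replicate number as a block and leaving out each library.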

Additional observations from a re-analysis of the deposited data

How the results depend on the processing

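The count of 27 called members was 27 with a pseudocount of 0.1 and 27 after quantile normalization, beside 40.7% and 40.6% of all genes. It was 26 with libraries scaled to equal medians (9 lower and 17 higher), beside 40.5% of all genes. Among genes with a mean of at least 1 FPKM it was 28, beside 50.1% of these genes. EIF2A, EIF3B and EIF3I lost their calls under equal medians and EIF4E under quantile normalization, while EIF4B gained one under both, EIF4G3 under equal medians and EIF2B1 among genes with a mean of at least 1 FPKM. With 1 library left out the count was 21 to 26, with 5 to 9 lower and 14 to 19 higher, beside 33.2% to 35.9% of all genes called. EIF5, EIF5B, EIF4A2, EIF4EBP2 and EIF4G2 were called under all 11 settings. Deviations from the group means correlated at -0.0401, -0.021 and -0.1078 between libraries with the same replicate number, over 11504 genes. Between other numbers the correlation reached 0.1097, for mimics replicate 1 with control replicate 3. With 3 libraries per group such values cannot decide whether the libraries were paired. With the replicate number as a block, 20 members were called, beside 34.1% of all genes, and EIF2A, EIF3B, EIF3C, EIF3E, EIF3G, EIF3I and EIF4E were not.

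The sum of eIF4F reversed to a log2 difference of -0.0105 under equal medians and ranged from -0.0265 to 0.0969 with 1 library left out; the other 4 sums kept their direction. The count of elongation and termination genes was 3 to 5 with 1 library left out. In such fits the log2 fold change ranged from -0.1967 to 0.0954 for EIF3F and from -0.3016 to 0.001 for EIF3J, both reversed without mimics replicate 1. It ranged from -0.0404 to 0.0041 for EIF4E3, reversed without control replicate 2, and from -0.0824 to 0.0172 for EIF4EBP3, reversed without mimics replicate 2. The cause was not tested. The listed transcripts of EIF3B, EIF3I and EIF4A2 have no 3'UTR, so no match could be sought in them. FPKM without counts gives no depth per value, and 3 libraries per group limit the precision of every value.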
